A study of Mus musculus with 7 samples.

Results

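The transcripts of 6 oocyte genes, Zp1, Zp2, Zp3, Gdf9, Bmp15 and Oosp1, were followed through 7 single mouse embryos. They were taken by symbol from a table of 26586 gene symbols, and all 6 were found in it. The embryos were morulae of the C57BL/6 background, flushed from oviduct or uterus 3 days post coitum after crosses of L13a+/- parents, and were left untreated. L13a is Rpl13a, a ribosomal protein gene, so every embryo shares parents of this kind, but the genotype of each embryo, its sex and its litter are not given. The 7 embryos are 1 group, numbered here as replicates 1 to 7 as in the labels. Nothing in the labels says that they came from separate mothers, so p-values speak only of how far these samples vary, part of which may be technical.

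The zona pellucida is the extracellular coat of the egg and early embryo, which the embryo still wears at the morula stage. In the mouse it is built from the glycoproteins ZP1, ZP2 and ZP3, which the growing oocyte makes and secretes. GDF9 and BMP15 are TGF-beta family ligands that the oocyte secretes to the surrounding granulosa cells, and Oosp1 encodes another secreted oocyte protein. These are maternal transcripts, made before ovulation and in general lost as the embryo's own genome takes over.

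Libraries held from 139619 (replicate 6) to 33123742 counts (replicate 4), and 1749 to 12064 symbols had a count. Because of that range, 3 counts, the limit that a count of 0 allows, equal 0.0906 CPM (counts scaled to the library total) in replicate 4 but 21.5 CPM in replicate 6. Of 18 lineage genes of the morula, such as Cdx2, Krt8 and Pou5f1, 5, 12, 8, 18, 5, 1 and 10 had a count in replicates 1 to 7. Of all 26586 symbols, 5121, 9383, 3486, 12064, 3388, 1749 and 8953 had one. The full marker set was thus counted in replicate 4 alone, the library with the most counts and symbols. Libraries are made from amplified cDNA without molecular identifiers, so all intervals and limits cover counting error only. Each library pools a whole embryo, and fewer cells that hold a transcript and less of it per cell cannot be told apart.

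The genes lie on 5 chromosomes of GRCm38. By GENCODE M21, Zp1 (ENSMUSG00000024734.8) spans chr19:10914287-10920632 on the minus strand and Zp2 (ENSMUSG00000030911.7) chr7:120126772-120145291, also minus. Zp3 (ENSMUSG00000004948.12) spans chr5:135980099-135988624 on the plus strand and Gdf9 (ENSMUSG00000018238.6) chr11:53431023-53437904, also plus. Bmp15 (ENSMUSG00000023279.7) spans chrX:6314107-6320721 and Oosp1 (ENSMUSG00000041857.10) chr19:11667460-11691150, both minus. All are protein coding, and no other annotated gene overlaps the span of any of them. Their merged exons measure 1981, 2724, 1323, 2031, 3060 and 972 bases in the order Zp1, Zp2, Zp3, Gdf9, Bmp15 and Oosp1.

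Upstream sequence is shown because FIGLA, the basic helix-loop-helix factor that drives the zona genes in oocytes, binds an E-box (CANNTG), and NOBOX, a homeobox factor of the oocyte, binds TAATTA or TAATTG. RefSeq promoter entries (GRCm38.p6) matched 3 of the 6 genes. The 250 bases before each start site are printed 5′ to 3′ on the gene's strand, with matches to the searched motifs in capitals. The windows are chr5:135979855-135980104 (plus) for Zp3, chr19:11691052-11691301 (minus) for Oosp1 and chrX:6320725-6320974 (minus) for Bmp15. Start sites are those of RefSeq, and GENCODE M21 places the starts of Oosp1 and Zp3 further upstream. The last printed bases of these 2 windows thus lie inside the GENCODE spans. For Oosp1 these bases hold the E-boxes that begin 93, 59 and 48 bases before the RefSeq start.
Zp3: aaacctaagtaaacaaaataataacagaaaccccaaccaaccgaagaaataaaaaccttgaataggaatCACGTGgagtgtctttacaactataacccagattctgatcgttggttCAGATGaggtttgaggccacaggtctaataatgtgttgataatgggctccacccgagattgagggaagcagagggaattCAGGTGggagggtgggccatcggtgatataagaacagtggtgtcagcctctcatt
Oosp1: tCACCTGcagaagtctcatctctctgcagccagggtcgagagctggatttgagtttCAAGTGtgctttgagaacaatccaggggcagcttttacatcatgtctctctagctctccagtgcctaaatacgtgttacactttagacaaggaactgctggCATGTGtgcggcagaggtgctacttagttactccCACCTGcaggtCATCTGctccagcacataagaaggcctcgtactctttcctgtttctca
Bmp15: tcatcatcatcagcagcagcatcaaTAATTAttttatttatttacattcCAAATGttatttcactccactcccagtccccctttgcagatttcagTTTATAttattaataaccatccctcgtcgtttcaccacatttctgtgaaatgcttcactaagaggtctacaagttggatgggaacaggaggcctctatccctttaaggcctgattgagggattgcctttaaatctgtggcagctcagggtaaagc

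Motifs were searched on both strands from 250 bases before to 50 after the start. Zp3 had 4 E-boxes, and the one that begins 181 bases before the start reads CACGTG; the fourth lies after the start, beyond the printed stretch. That palindrome is itself an E-box and was found in 7.15% of 32851 RefSeq windows of the same length. Oosp1 had 5 E-boxes and Bmp15 had 1, while 72.3% of all windows held at least 1. Bmp15 also had TAATTA, which 5.29% of windows held, 225 bases before the start, and TATAAA read on the other strand, which 13.6% held. TAATTG, present in 8.0% of windows, had no match in these 3. A match describes letters in the window and does not show a bound site.

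The 3 zona genes were counted in different embryos, and in replicates 1, 2, 3 and 7 each was below Oosp1 and Bmp15. Against Gdf9 the order varied: per kilobase of exon, Zp1 was above it in replicate 1 (71.1 against 27.1 CPM) and Zp2 in replicate 3 (180.6 against 20.4 CPM). Zp1, whose product cross-links the zona filaments, had 161, 1699, 1, 39, 0, 0 and 4384 counts in replicates 1 to 7. In CPM these were 141, 103, 1.38, 1.18, 0, 0 and 256. Zp1 was thus above 100 CPM in replicates 1, 2 and 7 and near or below the limit of 3 counts in replicates 3, 5 and 6; in replicate 4 its 39 counts, in the deepest library, gave a 95% Poisson interval from 0.837 to 1.61 CPM. On the log2 CPM scale it averaged 2.77 ± 4.48 (SD, n = 7).

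Zp2, the ligand that sperm bind and that the cortical granule protease ovastacin cleaves after fertilisation, had 0, 1994, 357, 0, 0, 0 and 447 counts. These came to 0, 121, 492, 0, 0, 0 and 26.1 CPM. Zp2 was counted in 3 embryos, and its highest level was in replicate 3, where Zp1 had 1 count and Zp3 had 0. In replicate 1, where Zp1 had 161 counts, Zp2 had 0, which allows up to 2.62 CPM. Its log2 CPM averaged 1.77 ± 4.92 (SD, n = 7).

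Zp3, the partner with which ZP2 copolymerises into filaments, had 22, 2274, 0, 118, 0, 0 and 2847 counts, or 19.2, 138, 0, 3.56, 0, 0 and 166 CPM. The 2 highest embryos, replicates 2 and 7, stood well apart from replicate 1, whose Poisson interval ran from 12.1 to 29.1 CPM. Its log2 CPM averaged 2.18 ± 4.35 (SD, n = 7). In replicate 6 all 3 zona genes had 0 counts, but at that depth each could have been present at up to 21.5 CPM; in replicate 5, also with 0 for all, the limit was 1.09 CPM.

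Gdf9, a ligand that signals through BMPR2 and SMAD2 or SMAD3 in granulosa cells, had the smallest SD of the 6. It had 63, 3411, 30, 205, 33, 14 and 8825 counts, or 55.1, 207, 41.3, 6.19, 11.9, 100.3 and 515 CPM, in replicates 1 to 7. It was the only one of the 6 counted in every embryo, as were 436 symbols of the whole table. Its highest level, in replicate 7, was 83.3-fold above its lowest, in replicate 4. Its log2 CPM averaged 5.83 ± 2.12 (SD, n = 7). Of the 11810 genes whose mean CPM reached 1, 4.54% had a smaller SD, a share not matched for abundance. After thinning to equal totals the order turned, with an SD of 1.62 for Zp3 and 1.69 for Gdf9. At that depth 3 counts equal 21.5 CPM, and Zp3 was above this in replicates 2 and 7 alone. The floor thus lowers its SD, and the turn does not show that Zp3 was the more even.

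Bmp15, the X-linked ligand that pairs with GDF9, had 2165, 8036, 2133, 2, 0, 39 and 36187 counts. In CPM it stood at 1893, 488, 2939, 0.0604, 0, 279 and 2113. Replicates 1, 3 and 7 were near the top of their libraries, where 99.1, 99.3 and 99.7% of the counted genes had fewer counts. In replicate 4, the deepest library, 2 counts left a Poisson interval from 0.00731 to 0.218 CPM. Its log2 CPM averaged 6.58 ± 5.92 (SD, n = 7), and 99.7% of genes tested had a smaller SD, a share not matched for abundance.

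Oosp1 had 2574, 23676, 1256, 16, 0, 1 and 38861 counts, or 2250.3, 1439, 1731, 0.483, 0, 7.16 and 2269.6 CPM. Replicates 1, 2, 3 and 7 lay within a narrow range, and replicates 4, 5 and 6 were at 0.483, 0 and 7.16 CPM. The single count of replicate 6 had an interval from 0.181 to 39.9 CPM, which still ended far below the 4 high embryos. Its log2 CPM averaged 6.22 ± 5.96 (SD, n = 7). Per kilobase of merged exon, the scale on which genes can be compared, median CPM was 1480.5 for Oosp1, 159.6 for Bmp15, 27.1 for Gdf9, 2.69 for Zp3, 0.696 for Zp1 and 0 for Zp2. The median of Zp1 is the single count of replicate 3. Mean CPM per kilobase was 1131 for Oosp1, 360.1 for Bmp15, 65.9 for Gdf9, 36.2 for Zp1, 35.3 for Zp3 and 33.5 for Zp2.

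**Figure D1:**
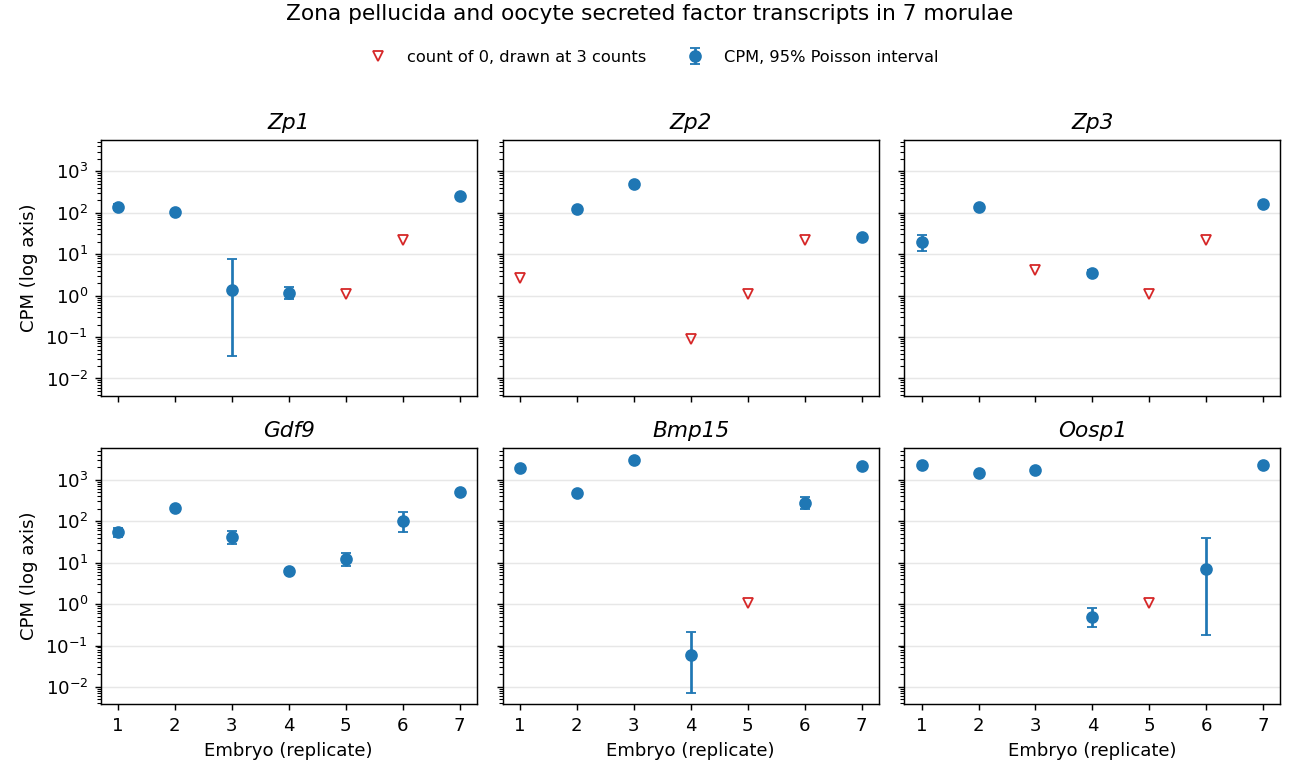
CPM of each gene (log axis) in each embryo, with 95% Poisson intervals; open triangles mark counts of 0, drawn at the level of 3 counts in that library. Oosp1 and Bmp15 exceed 400 CPM in replicates 1, 2, 3 and 7 and have at most 16 counts in replicates 4 and 5, while Gdf9 is counted in all 7.

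Summed over the 6 genes, the level was 4358, 2497, 5204, 11.5, 11.9, 387 and 5347 CPM in replicates 1 to 7. Replicates 4 and 5 were at 11.5 (95% Clopper-Pearson interval 10.3 to 12.7) and 11.9 (8.22 to 16.8) CPM, and their intervals overlapped. The highest sum was 466-fold above the lowest. Replicate 4, with the largest total, had the lowest sum, and replicate 3, with 725729 counts, the second highest. Replicate 6, with the smallest total, was at 387 CPM. The part of depth in these sums was not tested. After each library was thinned at random to 139619 counts, 584, 310, 700, 1, 2, 54 and 749 counts of the 6 genes were left.

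The makeup of what remained also differed. Gdf9 held 100% of the 33 counts of replicate 5 (interval 89.4 to 100%) and 53.9% of the 380 counts of replicate 4 (48.8 to 59.0%). In replicates 1, 2, 3 and 7 it held from 0.794 to 9.64%, and there Oosp1 and Bmp15 together made up most of the counts, Oosp1 from 33.3 to 57.6% and Bmp15 from 19.6 to 56.5%. Zp3 held 31.1% (26.4 to 36.0%) in replicate 4 and from 0 to 5.53% in replicates 1, 2, 3 and 7. In replicates 5 and 6 its count of 0 allows up to 9.09 and 5.56%. Per kilobase of exon, Oosp1 held the largest part in replicates 1, 2, 3 and 7, from 60.5 to 76.2%, and Bmp15 held from 8.21 to 32.6%. In replicate 3 this turns the order of these genes, since by plain counts Bmp15 was ahead.

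Ratios within an embryo do not depend on how its library is scaled. Of the counts of Bmp15 and Gdf9 together, Bmp15 made up 97.2, 70.2, 98.6, 0.966, 0, 73.6 and 80.4% in replicates 1 to 7. Replicates 4 (95% Clopper-Pearson interval 0.117 to 3.45%) and 5 (0 to 10.6%) did not overlap with any of the other 5, of which replicate 6 had the widest interval (59.7 to 84.7%). Per kilobase of exon, Bmp15 was 47.2-fold above Gdf9 in replicate 3 and 1.56-fold above it in replicate 2. Oosp1 made up 54.3, 74.7, 37.1, 88.9, 2.50 and 51.8% of the counts of Oosp1 and Bmp15 in replicates 1, 2, 3, 4, 6 and 7, and replicate 5 had no count of either. Replicate 6 (0.0633 to 13.2%), with Bmp15 but 1 count of Oosp1, stood apart from the rest.

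**Figure D2:**
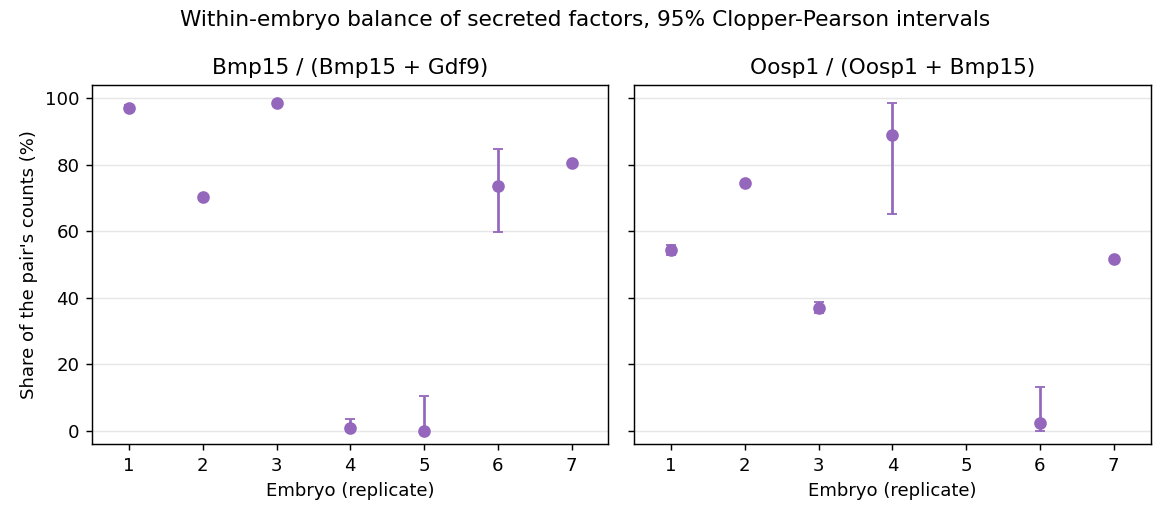
Share of Bmp15 in the counts of Bmp15 plus Gdf9 (left) and of Oosp1 in the counts of Oosp1 plus Bmp15 (right), in percent, per embryo with 95% Clopper-Pearson intervals. Bmp15 falls to 0.966 and 0% in replicates 4 and 5, and Oosp1 to 2.50% in replicate 6.

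The zona genes, whose products build a single matrix, showed no fixed proportion. Zp1 made up 88.0, 28.5, 0.279, 24.8 and 57.1% of the zona counts of replicates 1, 2, 3, 4 and 7. Zp2 made up 0, 33.4, 99.7, 0 and 5.82%, and Zp3 made up 12.0, 38.1, 0, 75.2 and 37.1%. Only in replicates 2 and 7 were all 3 counted, from 5967 and 7678 zona counts. The other 3 embryos had 183, 358 and 157 zona counts and lacked 1 gene each, or held it at up to 1.64% (Zp2 in replicate 1), 0.838% (Zp3 in replicate 3) and 1.91% (Zp2 in replicate 4). The zona shares of replicates 2 and 7 differed beyond their counting intervals for Zp1 (27.3 to 29.6% against 56.0 to 58.2%) and Zp2 (32.2 to 34.6% against 5.31 to 6.37%), but for Zp3 the intervals overlapped (36.9 to 39.4% against 36.0 to 38.2%).

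**Figure D3:**
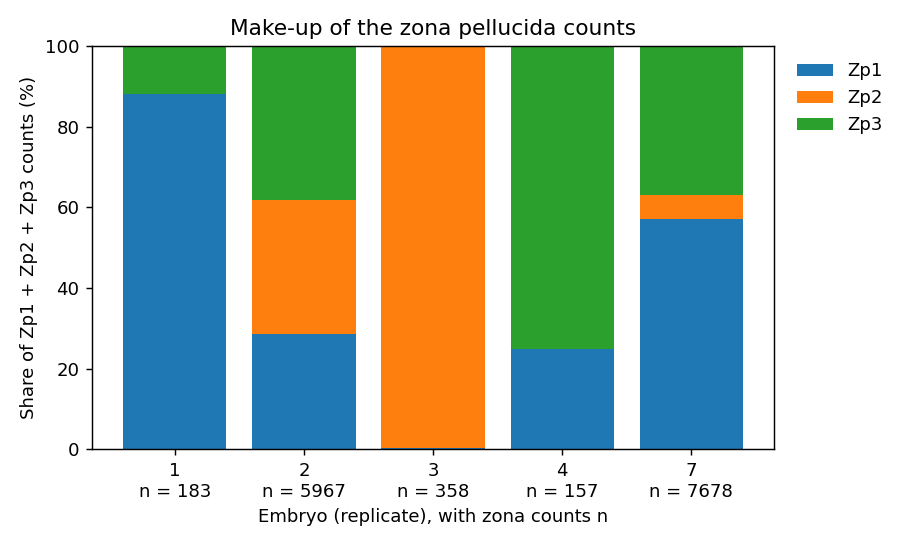
Stacked shares of Zp1, Zp2 and Zp3 in their summed counts (percent) for the 5 embryos with zona counts, with the number of counts under each bar. Replicate 3 is 99.7% Zp2, replicate 1 is 88.0% Zp1 and replicate 4 is 75.2% Zp3.

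The ratios of all pairs varied between embryos, for some pairs less than for others. Likeness was measured as the SD over the 7 embryos of the difference of 2 genes' log2 CPM, which is small when their ratio is steady. Of the 15 pairs, Zp1 and Zp3 had the smallest SD, 1.57, and Bmp15 and Oosp1 the next, 2.29; the largest, 5.87, was that of Zp3 and Bmp15, and the median was 4.57. Seen from Zp1, 0.838% of 11809 genes ran closer to it than Zp3 did, and seen from Bmp15, 0.322% ran closer than Oosp1. Zp2 stood at 5.23 from Zp1 and 5.48 from Zp3, and seen from Zp2, 32.7 and 39.3% of genes ran closer than these. Embryos in which both genes are at 0 give a difference of 0, so replicates 5 and 6 made Zp1 and Zp3 look closer. Even so, Zp1 minus Zp3 ran from -1.47 in replicate 4 to 2.86 in replicate 1. Its 2.52 in replicate 3 rests on 1 count against 0. Bmp15 minus Oosp1 ran from -1.56 in replicate 2 to 5.21 in replicate 6. Without each embryo in turn, the SD of Zp1 and Zp3 stayed between 1.31 and 1.74. For Bmp15 and Oosp1 it fell to 0.93 without replicate 6, and lay between 2.31 and 2.52 without any other embryo.

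**Figure D4:**
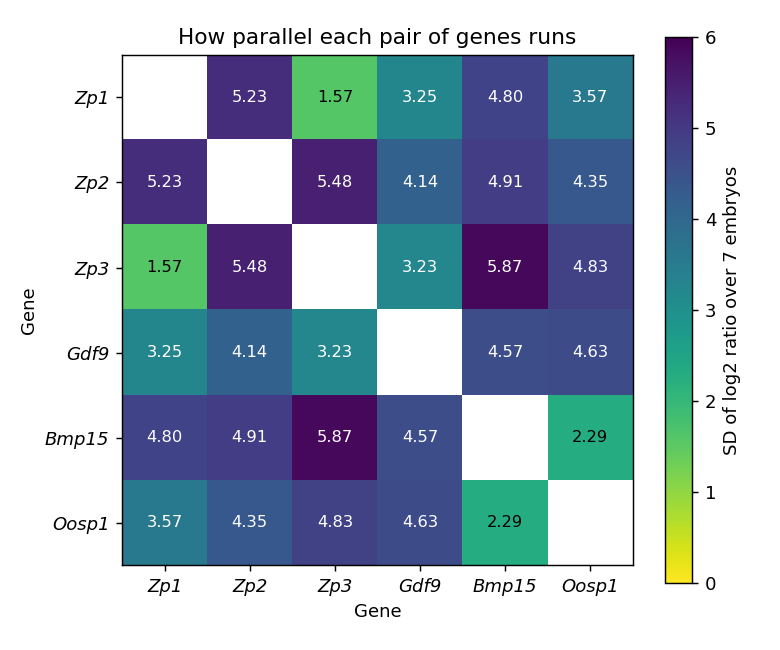
SD over the 7 embryos of the log2 ratio of each pair of genes, as numbers and colour (log2 units; lighter means a steadier ratio). Zp1 with Zp3 (1.57) and Bmp15 with Oosp1 (2.29) are the only pairs under 3.

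Of all other genes, those running closest to single genes were Agap1 for Zp1 (SD 0.39), Cnnm2, a magnesium transport gene, for Zp3 (0.53), Obox5, an oocyte homeobox gene, for Bmp15 (0.54), Skint6 for Zp2 (0.67), the centriole kinase gene Plk4 for Gdf9 (0.94) and Unc13c for Oosp1 (0.95). The median SD over all genes ran from 3.99 for Gdf9 to 7.17 for Bmp15. Each neighbour is the smallest of 11804 SDs over 7 embryos, and shared zeros make an SD small. Skint6, for instance, was at 0 in replicates 1, 4, 5 and 6, as was Zp2. How far these 6 neighbours rest on single embryos was not tested. Closest to the mean log2 CPM of the 6 genes were 1700021K19Rik (SD 1.11), Fam199x (1.17), Papd7 (1.17), Mt4 (1.23), Efcab6 (1.29), Dgkh (1.34), Stk36 (1.35), Pdzd2 (1.36), Zbtb33 (1.40) and Lbp (1.41), against a median of 4.81 over 11804 genes. This list of 10 rested on single embryos: 0 of the 10 stayed without replicate 4, 1 without replicate 3 and 2 without replicate 1, 2 or 6, and 5 and 8 without replicates 7 and 5.

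As a test, the spread of every gene over the embryos was compared with that of genes of like abundance (edgeR quasi-likelihood dispersion test, one-sided, Benjamini-Hochberg adjustment at 0.05). Of 11810 genes tested, 0% passed, so 0 of the 6 genes passed (adjusted p 0.869 for Zp1, Zp2, Zp3, Bmp15 and Oosp1, and 0.958 for Gdf9, edgeR). Unadjusted, 67 genes had a p under 0.05, none of the 6 among them. By limma on the authors' log2 values, 0% passed as well, and with a prior not estimated robustly, chosen after seeing the data, 0.0169% passed, 0 of the 6 genes among them. The common dispersion was 9.03 over all genes. On simulated data the edgeR test had little power at a spread as large as in these libraries. Its 0 thus cannot tell whether any gene varied more than genes of like abundance. A p that misses the threshold does not show that the levels were alike. The median SD of log2 CPM was 4.70 over the 6 genes, all of which passed the filter, and 3.63 over all genes tested. Of the 6, 5 lay above the latter. This comparison is not matched for abundance: mean CPM ran from 46.8 for Zp3 to 1102 for Bmp15, and the filter began at 1. A count of 0 sits at a fixed floor, so a gene high in some embryos and at 0 in others gets a large SD.

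The Oosp1 locus holds related genes, which the table lists under older symbols. In RefSeq (GRCm38.p6), Oosp2 (listed as Plac1l) lies at chr19:11647284-11660559 and Oosp3 (listed as Gm97) at chr19:11697055-11711858, on either side of Oosp1. Gm97 was at 1937, 1193, 181, 0, 20.3, 408 and 1874 CPM in replicates 1 to 7. It followed Oosp1 in replicates 1, 2 and 7, but in replicate 6 it had 57 counts where Oosp1 had 1, and in replicate 5 it had 56 where Oosp1 had 0. Plac1l was at 0, 94.3, 60.6, 0, 0, 0 and 185 CPM. The SD of the log2 ratio to Oosp1 was 3.79 for Gm97 and 4.15 for Plac1l, both above that of Bmp15 to Oosp1. Whether these related genes share reads was not determined.

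Of 14 partners of the zona and the egg surface 13 were in the table, and 6 of these had no count in any embryo, among them the pseudogene Zp4-ps; of all symbols listed, 43.7% had none. Of the other 7, 5 ran closer to the mean of the 6 genes than the median gene did. This is a weak yardstick, since a gene at 0 in every embryo had an SD of 3.90, also below the median of 4.81. The median SD of the 7 was 3.46. Folr4, which encodes JUNO, the egg receptor for sperm IZUMO1, had 1041 counts in replicate 2, 736 in replicate 7 and 0 elsewhere. Those are the embryos in which all 3 zona genes were counted. Astl, which encodes ovastacin, had 475 counts in replicate 7 and 0 elsewhere. The tetraspanin gene Cd9, needed for sperm-egg fusion but also expressed in embryos, went another way, with 868 and 781 CPM in replicates 4 and 5 and at most 110.3 CPM elsewhere.

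Of 10 transcription factors of oocyte genes, 5 had a mean CPM of 1 or more, as did 44.4% of all symbols. Of these, 0 passed the edgeR test, which 0% of all genes tested passed. All 5 ran closer to the mean of the 6 genes than the median gene did (median SD 3.31 against 4.81). A gene at 0 in every embryo, at an SD of 3.90, would also do so. Among the 5, Tbpl2 had counts in replicate 7 alone, where the 6 genes were highest. Figla, below the filter, stood at 4.89. Nobox had 12, 0, 4, 0, 0, 0 and 2072 counts in replicates 1 to 7, and Lhx8, another oocyte homeobox gene, 13, 100, 0, 0, 0, 0 and 1529. Figla had 130 counts in replicate 4, where Zp1 and Zp3 had 39 and 118, and 0 in the other embryos, including replicates 2 and 7, which had the most zona counts. Taf4b, a TFIID subunit of germ cells, reached 147 CPM in replicate 7, and the E-protein gene Tcf3, which encodes partners of FIGLA, 214 CPM there.

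All 28 genes of GDF9 and BMP15 signalling (receptors, SMADs, processing enzymes and inhibitors) were in the table. A mean CPM of 1 or more was reached by 21, and by 44.4% of all symbols. The edgeR test, which 0% of all genes tested passed, called 0 of the 21. The median SD of their log2 ratio to the mean of the 6 genes was 4.84, against 4.81 over all genes, and 10 of the 21 ran closer than the median gene. The type II receptor Bmpr2 had 0, 102, 250, 79, 0, 0 and 856 counts in replicates 1 to 7, and its highest level was 344 CPM in replicate 3. The type I receptor Tgfbr1 reached 209.8 CPM in replicate 1 and 60.4 in replicate 7, and Bmpr1b 23.3 CPM in replicate 2 and 17.9 in replicate 3. The BMP target Id2 was at 5.25, 71.7, 0, 315, 0, 0 and 9.34 CPM in replicates 1 to 7, and Id1, another target, had counts in replicate 2 alone, at 67.0 CPM. Bmp6, a further ligand of the family, stood at 222 CPM in replicate 7 and 4.01 in replicate 2 and had no count elsewhere. Follistatin (Fst), which binds ligands of this family, had 554 counts in replicate 5 and 1 in all other embryos together. Of the 28 genes, 0 had a count in replicate 6 and 17 had one in replicate 4. Of all 26586 symbols, 1749 and 12064 had a count in these 2 libraries.

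Other transcripts differed between the same embryos. A list of 24 other oocyte transcripts summed to 20680, 15437, 12219, 6644, 1407, 14847 and 24513 CPM in replicates 1 to 7. The 6 genes were thus 17.4, 13.9, 29.9, 0.172, 0.841, 2.54 and 17.9% of their joint counts, with the lowest values in replicates 4, 5 and 6. In replicate 4, Dppa3 and 2410004A20Rik, an older symbol of Khdc3, made up 6535 of the 6644 CPM. Without that pair, singled out after its values were seen, the 6 genes were 9.50% of the joint counts there, against 0.894% in replicate 5, 3.27% in replicate 6 and from 16.7 to 32.8% in the other embryos. Of the 24 transcripts, 17, 21, 13, 13, 9, 10 and 22 had a count in replicates 1 to 7. Of all 26586 symbols, 5121, 9383, 3486, 12064, 3388, 1749 and 8953 had one. Omt2b was at 1.57 CPM in replicate 4 and 577 in replicate 5, and Tcl1 at 6.88 and 205 CPM. Of 21 transcripts of the list whose mean CPM reached 1, 19 ran closer to the mean of the 6 genes than the median gene did. The median SD of the 21 was 3.23, against 4.81 over all genes and 3.90 for a gene at 0 in every embryo. The morula lineage list summed to 822, 1148, 1939, 7183, 778, 3065 and 558 CPM, highest in replicate 4. In replicate 6 all of that sum was Dab2. Epcam, an epithelial adhesion gene, was highest in replicate 4 at 1499 CPM, and Sall4, a pluripotency factor gene, in replicate 2 at 475 CPM.

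Markers of the cells around the embryo were uneven as well. Oviduct and uterine epithelium genes summed to 1154, 1899, 0, 87.1, 1.81, 6289 and 395 CPM. Of these genes, 12 of 12 were counted in some embryo, while 43.7% of all symbols had no count in any. The most abundant of the 12 by mean CPM, Lcn2, Sprr2f and Wfdc2, were highest in replicate 6, at 1489.8, 1948 and 1690.3 CPM. Those values themselves raise the means. With Ltf, they were the only 4 of the 12 counted in replicate 6. The rest, among them Ovgp1, Cldn3, Muc1 and Clu, had a count of 0 there, and Ovgp1 was highest in replicate 1 at 627 CPM. The sum of the list was 0 in replicate 3, which had the second highest level of the 6 genes. Of 14 cumulus and granulosa genes, 8 were at 0 in all embryos, as were 43.7% of all symbols. Among the 8 were the defining Amh, Fshr, Cyp19a1 and Foxl2. The sums of the list ran from 0 in replicate 6 to 482 CPM in replicate 5, mostly Nr5a2, which embryos also express. Amhr2, the receptor of anti-Mullerian hormone, reached 459 CPM in replicate 3 and 288 in replicate 2, and Inha, an inhibin subunit gene, had counts in replicate 2 alone, at 12.0 CPM. Of 9 sperm genes, 7 were at 0 in all embryos, against the same 43.7% of all symbols. Their sum reached 22.0 CPM in replicate 7, from Prm2. Prm1 had 15 counts in replicate 4 alone, and Tnp1 had 0 in all embryos. The part of other cells, depth and RNA quality in the levels of the 6 genes was not tested.

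**Figure D5:**
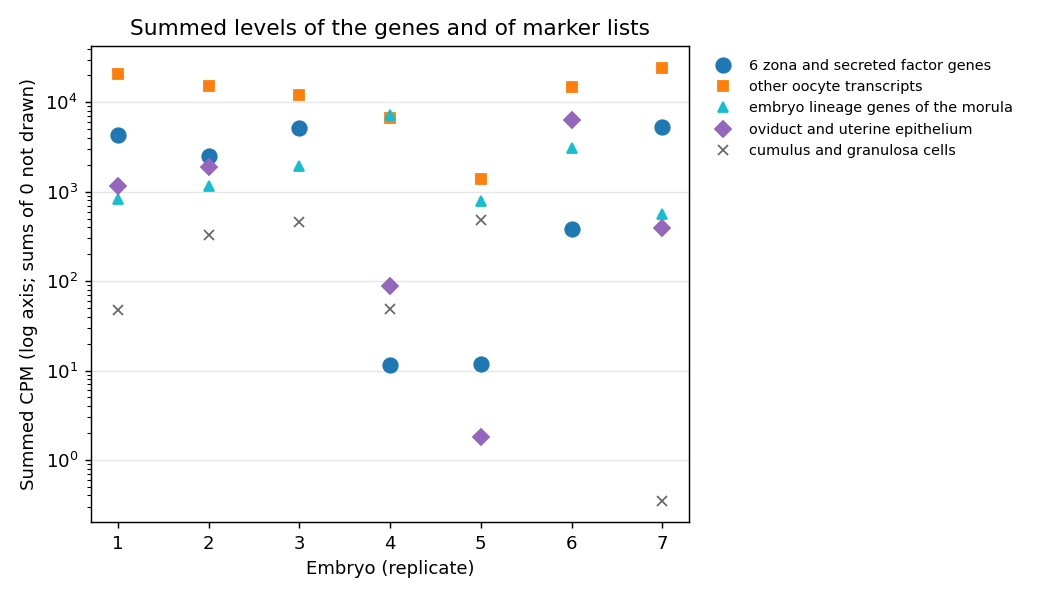
Summed CPM (log axis) of the 6 genes and of 4 marker lists in each embryo; sums of 0 are not drawn. The 6 genes are at 11.5 and 11.9 CPM in replicates 4 and 5, where the other oocyte transcripts sum to 6644 CPM, of which 6535 come from 2 genes, and to 1407 CPM.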

How the data were processed

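RNA of 7 single embryos was captured by its poly(A) tail, copied with SMART-Seq v4 and made into Nextera XT libraries, per the labels' protocols. The authors used HISAT2 2.0.5, featureCounts 1.5.0-p2 of Subread, limma and build GRCm38, per the submitters' processing notes; their roles, settings, annotation and strand use: not given in the sources used here. Per gene symbol, the authors deposited counts, which are whole numbers. The deposited log2 table holds normalized log2 values whose columns share 1 lowest and 1 highest value; it served as an alternative. Columns were matched to embryos by the number in the title, and 0 columns were left unused. Totals ran from 139619 to 33123742.

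CPM are counts over the library total. Log2 CPM used TMM factors and a prior count of 2 (edgeR 4.0.16, R 4.3.3), and the spread test used genes whose mean CPM reached 1 and the highest prior degrees of freedom from robust estimation; it was tested on simulated data, where it had little power at a spread as large as in these libraries. Alternatives used DESeq2 1.42.0 and limma 3.58.1. Intervals are exact Poisson or Clopper-Pearson at 95% (scipy 1.17.1). No groups were compared. The 6 genes and all lists were chosen with earlier results of these data known. Named genes were the 6, the 10 nearest to their mean, the nearest to each, and the 3 most abundant of each list; list genes beyond these, and other single values, were chosen after their values were seen.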

Additional observations from a re-analysis of the deposited data

Results flagged for a closer look

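In 13 sets of 7 values (CPM and log2 CPM of each gene, and the summed CPM), the gap of the highest or lowest embryo to its neighbour was divided by the whole range and set against Dixon's critical value for 7 samples at the 95% level. Chance flags about 5% of sets of normal values. CPM are skewed and hold zeros, and the 13 sets share values, so that rate need not hold here. For Zp2 the ratio was 0.754 on the CPM scale, because replicate 3 (492 CPM) lay far above replicate 2 (121 CPM). For Gdf9 it was 0.605, because replicate 7 (515 CPM) lay far above replicate 2 (207 CPM). On the log2 scale 0 of the 6 genes exceeded the critical value.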

How the results depend on the processing

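The count of genes past the spread test was 0 with DESeq2 size factors, the library total, all genes with any count, a mean CPM of 10 or more, the authors' log2 table with limma (81 genes unadjusted, Bmp15 and Oosp1 among them at p 0.0325 and 0.0372, adjusted p 0.878), DESeq2 dispersion outliers, and without each embryo in turn (from 9 genes unadjusted without replicate 7 to 114 without replicate 5). With limma and a prior not estimated robustly, an alternative chosen after seeing the data, it was 2 (143 unadjusted): Zbed3 (adjusted p 0.000259) and Siah2 (0.0388). The repeated 0 of the edgeR test adds no support, because that test had little power at such a spread. Of 72 alternative SDs of single genes, 64 lay within 1 log2 unit of the reported value. Thinning all libraries to the lowest total lowered the SD to 1.89 for Zp1, 1.91 for Zp2, 1.62 for Zp3, 1.69 for Gdf9, 3.24 for Bmp15 and 3.64 for Oosp1. At that depth 3 counts equal 21.5 CPM, so low levels fall to the floor. A prior count of 0.5 gave 5.96 for Zp2, the authors' log2 values gave 3.16 for Gdf9, and leaving out replicate 4 gave 4.91 for Bmp15. Per kilobase of exon, zona shares were 25.9% Zp1, 22.1% Zp2 and 52.0% Zp3 in replicate 2, and 48.9, 3.62 and 47.5% in replicate 7, where Zp1 and Zp3 are then nearly even. The median SD over the 15 pairs ran from 3.57 to 5.16. With TMM-scaled totals, the sums of replicates 4 and 5 became 15.7 and 14.3 CPM, which turns their order, and that of replicate 6 became 230 CPM. Of the 10 genes nearest to the mean, 8 stayed with a mean CPM of 10 or more and 7 with a prior count of 0.5. No paired analysis was possible because the embryos form 1 group. Depth limits the zeros of replicate 6 most.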
